A study of Rattus norvegicus with 35 samples.

Results

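The comparison described here set rat liver after the highest dose of TBB, 550 mg/kg, against liver after the next lower dose, 55 mg/kg. It asked what the higher dose added to the response over genes of metabolism, antioxidant defence, mitochondria, the cell cycle and secreted proteins. TBB is the brominated flame retardant 2-ethylhexyl-2,3,4,5-tetrabromobenzoate. The members were the 12 of 35 arrays whose labels gave these doses, 6 at each. The other groups were vehicle (5 arrays) and TBB at 0.05, 0.55 and 5.50 mg/kg (6 arrays each). All animals were male Harlan Sprague Dawley rats, 7 weeks old when the study began. They were gavaged with corn oil alone or with TBB in corn oil on 5 consecutive days, so every group, controls included, received the oil. RNA came from the left liver lobe a day after the last dose and was measured on an Affymetrix rat array. The labels do not say that each array held the RNA of its own animal, so the p-values rest on how far these samples scattered, and part of that scatter may be technical. Arrays give no read depth, and their number limits the precision. In whole liver RNA, fewer cells of a type and less RNA per cell cannot be told apart.

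Liver cells answer foreign compounds through receptors that switch on sets of genes. The aryl hydrocarbon receptor (AhR) raises cytochrome P450 enzymes of family 1, which oxidise planar aromatic compounds. PPARalpha raises enzymes that activate and burn fatty acids in peroxisomes and mitochondria, and NRF2 raises enzymes that reduce quinones and supply or use glutathione. Adult hepatocytes rarely divide, so transcripts of cyclins and of the mitotic spindle are low in resting liver, and most proteins of blood plasma are made and secreted by hepatocytes.

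Values below are the deposited log2 expression values, and a change is the mean at 550 mg/kg minus the mean at 55 mg/kg on that scale, with its standard error. Of 31042 probe sets, 213 (0.686%) passed an adjusted p of 0.05 in limma's moderated test with Benjamini-Hochberg adjustment over all probe sets, and those are said to have risen, fallen or been called. The rises numbered 179 (0.577%) and the falls 34 (0.11%). The changes were small: the called rises had a median of 0.36 and the called falls a median of -0.35. A change of at least 1.5-fold was held by 34 of the rises and 4 of the falls. In 358 probe sets (1.15%) the 6 arrays of one dose did not overlap the 6 of the other, and 150 of these were called; at 1 probe set per gene the number without overlap was 241 (1.7%). At 1 probe set per gene, 162 of 14217 genes (1.14%) were called, 136 higher (0.957%) and 26 lower (0.183%). Over all 14217 genes the median change was -0.01, and 47.5% were positive. In the fit of the same arrays against vehicle, 155 probe sets (0.499%) were called at 550 mg/kg and 2 (0.00644%) at 55 mg/kg, which were those of Cyp1a1 and Cyp1a2. These comparisons share arrays with the one described here, so their values stand beside it and are not separate support. Leaving out 55 mg/kg replicate 1 lowered the 213 called probe sets to 123, leaving out 55 mg/kg replicate 4 lowered them to 137, and a fit of the 12 arrays alone gave 76.

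**Figure D1:**
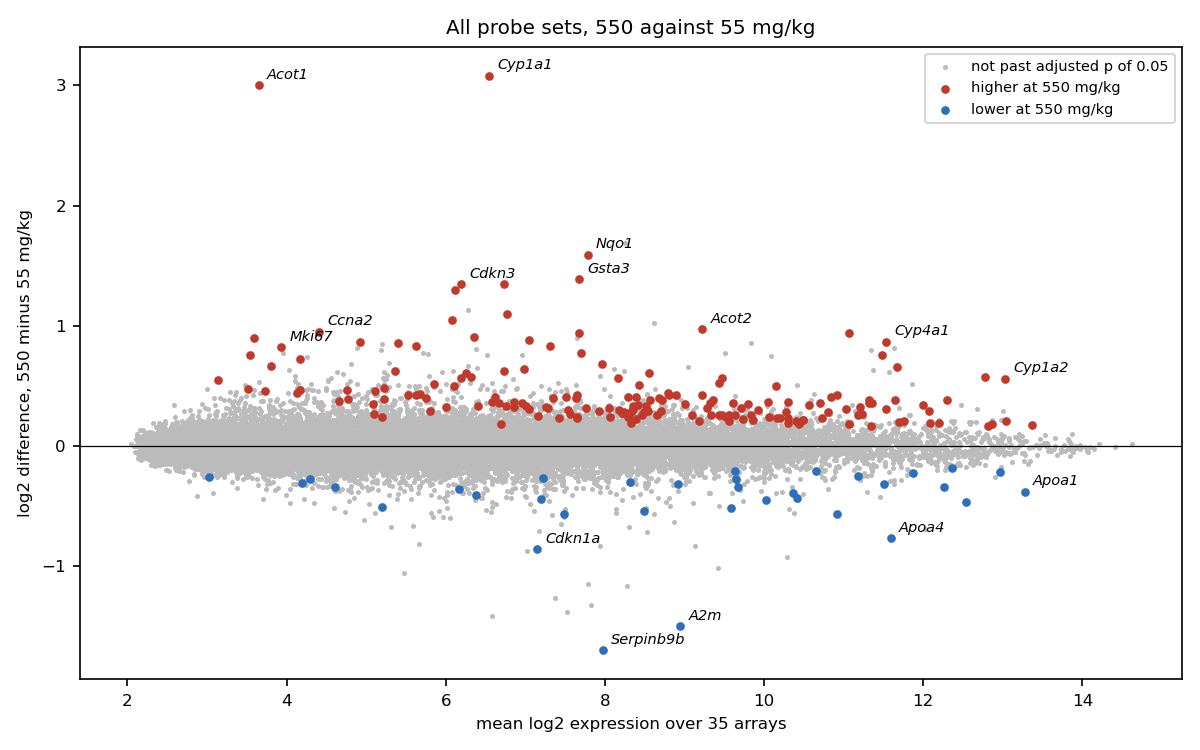
The mean log2 expression over 35 arrays (x) is plotted against the log2 difference of 550 minus 55 mg/kg (y), 1 point per probe set; red points are the 179 called higher, blue points the 34 called lower and grey points the rest. Cyp1a1 and Acot1 stand near 3 on the y axis, far above the other called probe sets, and A2m and Serpinb9b stand lowest among those called.

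The tissue label fitted its markers. Of 12 hepatocyte markers, 10 had a probe set, and their mean log2 level ran from 12.73 to 13.01 in the 55 mg/kg arrays and from 12.77 to 12.85 in the 550 mg/kg arrays. Of the 10, 3 had positive changes and 1, Apoa1, was called, lower at 550 mg/kg; the median change was -0.05. Pairwise correlations among the 12 arrays lay between 0.992 and 0.996, and no pair held identical values. The signal of the 3′ minus the 5′ actin control, a sign of RNA breakdown, ran from 1.14 to 1.34 at 55 mg/kg and from 1.03 to 1.32 at 550 mg/kg.

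The AhR targets gave the largest single change. Of 9 measured members, 3 rose (Cyp1a1, Cyp1a2 and Nqo1) and none fell, and the list's median change was 0.09. Cyp1a1 (probe set 1370269_at), the P450 that serves as the classic readout of AhR activity, had 55 mg/kg arrays at 7.89 at the lowest, 8.66 at the median and 9.67 at the highest. Its 550 mg/kg arrays ran from 11.46 through a median of 11.85 to 12.32. The groups did not overlap, and the vehicle arrays, from 4.23 to 4.71, lay below both. Its change was 3.08 ± 0.23, or 8.46-fold, at an adjusted p of 9.2e-11 in limma, beside 4.26 ± 0.24 for 55 mg/kg against vehicle. Cyp1a1 thus went up at both steps of dose.

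Cyp1a2 (1387243_at), which oxidises caffeine and aromatic amines and is abundant in liver without any inducer, lay in a narrow band at each dose. Its arrays had a lowest value of 13.16, a median of 13.24 and a highest of 13.34 at 55 mg/kg, against 13.75, 13.82 and 13.87 at 550 mg/kg. The change was 0.56 ± 0.05 (limma adjusted p = 5.6e-09), beside 0.47 ± 0.05 for 55 mg/kg against vehicle. Cyp1b1, another P450 under AhR control, had a change of 0.08 ± 0.07 with an adjusted p of 0.80 in limma, and its groups overlapped, from 4.82 to 5.15 at 55 mg/kg and from 4.95 to 5.42 at 550 mg/kg. The called changes of this list were therefore those of 2 P450s and of Nqo1, a gene that both AhR and NRF2 are known to drive.

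Nqo1 (1387599_a_at), the quinone reductase that also heads the NRF2 list, behaved unlike the P450s at the lower dose. Its 55 mg/kg arrays had a lowest value of 7.50, a median of 7.70 and a highest of 7.93, close to the vehicle range of 7.41 to 7.77. At 550 mg/kg they had 8.53, 9.39 and 9.68, with no overlap. The change was 1.59 ± 0.15, or 3.01-fold (limma adjusted p = 1.2e-08), beside 0.17 ± 0.15 for 55 mg/kg against vehicle. The lowest of the 550 mg/kg arrays was replicate 3, and the next lowest read 9.26.

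The promoter of Nqo1 is shown because both the AhR and the NRF2 list hold the gene. It is the window from 250 bases before to 50 bases after the gene's start at chr19:52220218-52220517 on the minus strand of GRCr8, from RefSeq. Capitals mark GCGTG, the core that the AhR complex reads, on either strand. TGACNNNGC, the core read by NRF2, was searched on both strands as well and has no match in this window.
Nqo1: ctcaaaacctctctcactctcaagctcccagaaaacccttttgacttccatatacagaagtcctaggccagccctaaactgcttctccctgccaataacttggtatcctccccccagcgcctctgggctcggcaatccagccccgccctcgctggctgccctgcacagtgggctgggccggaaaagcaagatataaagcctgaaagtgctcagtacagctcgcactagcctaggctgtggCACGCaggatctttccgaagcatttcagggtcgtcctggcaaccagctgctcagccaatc
A gene can have more than 1 window and counts here if any of them holds the motif. Of 27457 genes with a window in the table, 32.4% hold GCGTG and 13.1% hold TGACNNNGC; of its 33469 windows, 29.7% and 12.1% do. Among the 8 called NRF2 and glutathione genes, 5 had a window: GCGTG was in 3 (Nqo1, Me1 and Gsta3) and TGACNNNGC in 2 (Me1 and Gsta3). Among 25 uncalled genes of the list with a window, GCGTG was in 14 and TGACNNNGC in 7. Of the other called AhR targets, Cyp1a1 had no window and that of Cyp1a2 held neither motif. A match describes the letters of the window and is no evidence of binding. The absence of a match says nothing about sequence outside the window.

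The NRF2 and glutathione list had 8 of 35 members higher and none lower, with 26 positive and a median of 0.14. The 8 were Nqo1, Gsta3, Abcc3, Gsr, Me1, Tkt, Mgst2 and Aox1. The other 27 were not called, among them Gclc, Gclm, Hmox1, Txnrd1, Srxn1, Gpx2 and Gstp1. Changes within the list ran from -0.56 to 1.59. Gsr (1369061_at), glutathione reductase, which returns oxidised glutathione to its reduced form, ran from 8.23 through 8.41 to 8.71 at 55 mg/kg and from 8.78 through 9.05 to 9.17 at 550 mg/kg. Every 550 mg/kg array lay above every 55 mg/kg array, and the change was 0.60 ± 0.09, or 1.52-fold (limma adjusted p = 1.7e-04). Against vehicle, Gsr changed by 0.45 ± 0.09 at 550 mg/kg, since its 55 mg/kg mean of 8.43 lay under the vehicle mean of 8.58. Tkt, transketolase of the pentose phosphate pathway, rose by 0.36 and Aox1, aldehyde oxidase, by 0.31. Against vehicle, their changes at 550 mg/kg were 0.24 and 0.36. Me1, malic enzyme, a source of NADPH for lipid synthesis and for glutathione recycling, changed by 0.57 ± 0.14 with an adjusted p of 0.046 in limma. Its groups overlapped, and its call was lost in 12 of 20 alternative analyses.

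In the NRF2 list, the mean of all 35 members per array was lowest at 550 mg/kg in replicate 3, at 8.92, while the other 5 arrays of that dose lay from 9.06 to 9.20. The 55 mg/kg arrays ran from 8.77 to 8.94, so replicate 3 lay within them and the other 550 mg/kg arrays above them. Abcc3, the MRP3 pump that carries glucuronides out of hepatocytes into blood, showed the same array low. It read 5.25 in its lowest array at 550 mg/kg, against a median of 6.18 and a highest of 6.84, and from 4.71 to 5.68 at 55 mg/kg. Its groups thus overlapped, and its change was 0.86 ± 0.19 (limma adjusted p = 0.020), a call lost without 55 mg/kg replicate 1, without 550 mg/kg replicate 2 or 5, and in the fit of the 12 arrays alone.

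Among 31 other antioxidant genes, 3 rose and none fell, with a median of 0.05. These were Blvrb, biliverdin reductase B, at 0.28 ± 0.06, Txnrd2, the mitochondrial thioredoxin reductase, at 0.24 ± 0.06, and Prdx3, the mitochondrial peroxiredoxin, at 0.19 ± 0.04. The groups of all 3 overlapped, and their calls were lost in 7, 10 and 8 of 20 alternative analyses. Over both antioxidant lists, 11 of 66 genes (16.7%) rose, beside 0.957% over all genes. The NRF2 and glutathione list had 22.9% called and the other list 9.68%. Over both lists, 7 were called when each array's median was subtracted and 4 in the fit of the 12 arrays alone. Without 55 mg/kg replicate 1 there were 5, without 550 mg/kg replicate 4 there were 6, and without 55 mg/kg replicate 6 or 550 mg/kg replicate 6 there were 7.

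**Figure D2:**
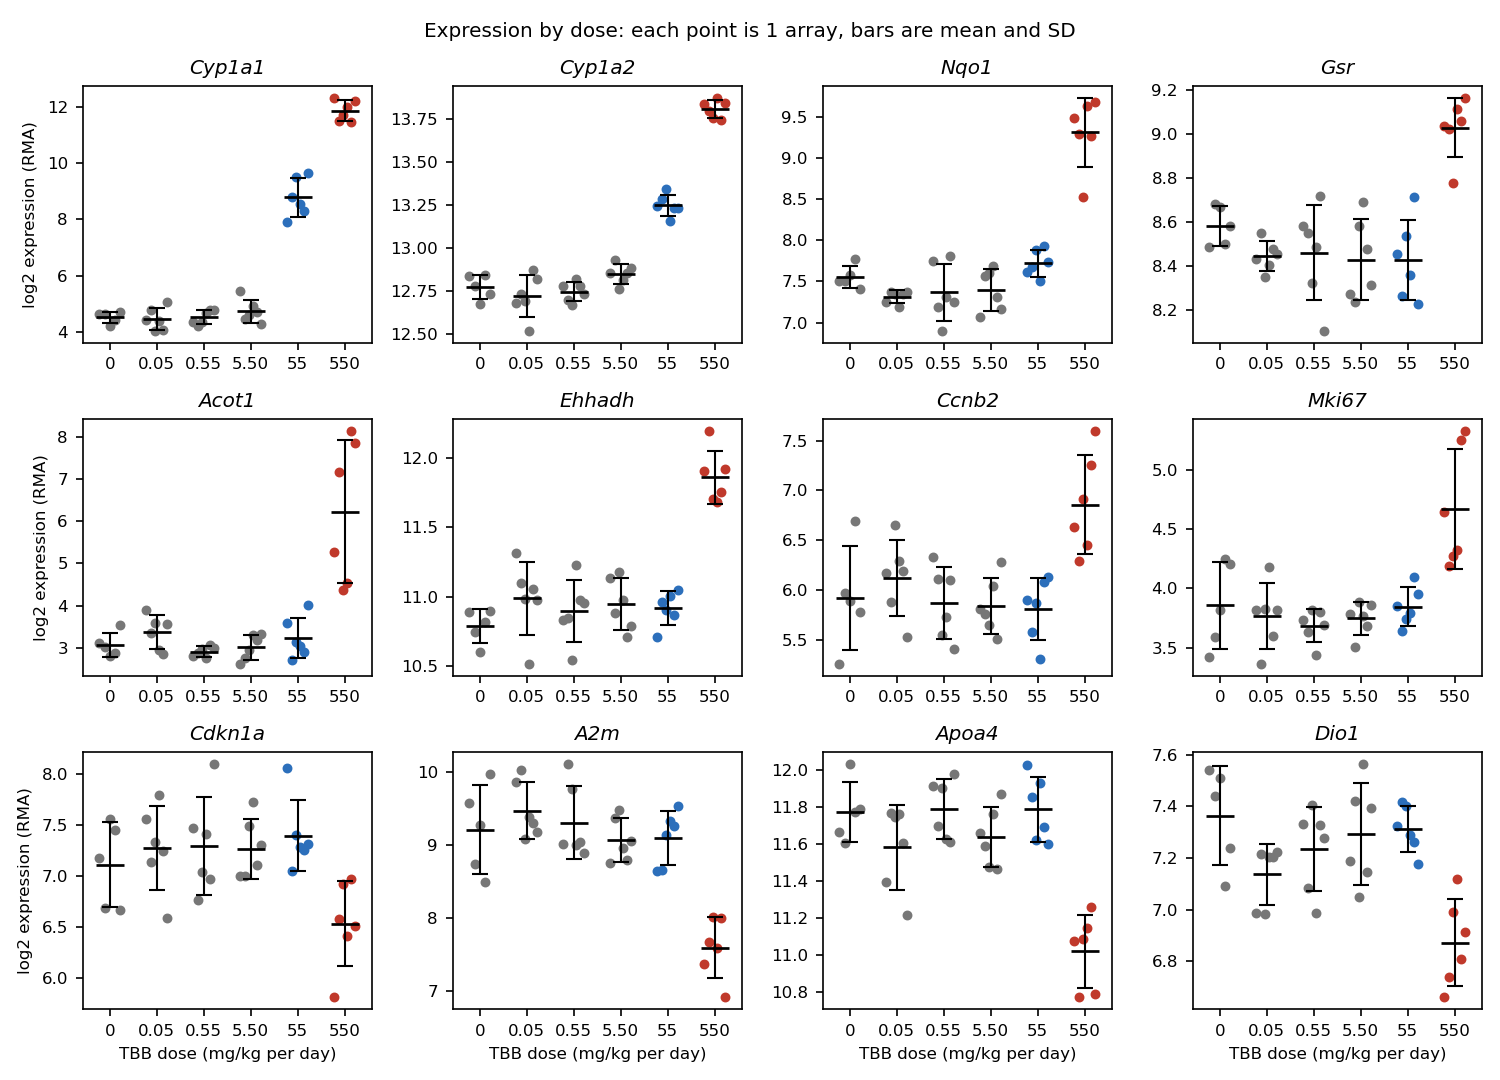
Each panel plots the log2 expression of 1 gene (y, with its own range) against the TBB dose in mg/kg per day (x, categories), with 1 point per array and black bars for the mean and SD; blue marks 55 and red 550 mg/kg. Cyp1a1 and Cyp1a2 stepped up at 55 and again at 550 mg/kg, while the 550 mg/kg arrays of Nqo1, Gsr, Acot1 and Ehhadh lay above every other array and those of A2m and Apoa4 below most or all of them.

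Among 51 conjugation enzymes, which attach glutathione, glucuronate, glycine or other groups to foreign compounds, 8 rose and none fell. The list had 42 positive members and a median of 0.14, beside -0.01 over all genes. Gsta3 (1371089_at), an alpha class glutathione transferase, ran from 7.08 through 7.75 to 7.93 at 55 mg/kg and from 8.52 through 9.04 to 9.33 at 550 mg/kg. The groups did not overlap, and the change was 1.39 ± 0.22, or 2.61-fold (limma adjusted p = 5.9e-04). Gstt1, a theta class transferase, rose by 0.52 ± 0.07 and Glyatl2, a glycine acyltransferase, by 0.51 ± 0.08, both without overlap. Ugt2b1, a glucuronosyltransferase of steroids and drugs, rose by 0.38 ± 0.09, a call lost in 6 of 20 alternative analyses, and Mgst2, a microsomal transferase, by 0.36 ± 0.07. Against vehicle, the 550 mg/kg changes of Gsta3, Gstt1, Glyatl2, Ugt2b1 and Mgst2 were 1.79, 0.39, 0.60, 0.21 and 0.30. The 55 mg/kg means of Gstt1, Ugt2b1 and Mgst2 lay under their vehicle means. Gsta4, Gsta1 and Gsto1 rose by 0.27, 0.18 and 0.16, with limma adjusted p-values of 0.0495, 0.034 and 0.024. The groups of Gsta4 and Mgst2 overlapped, and the call of Mgst2 was lost in the fit of the 12 arrays alone. Transferases and UGTs are families of close paralogs, and a 3′ probe set of one may also take up another.

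Of the 35 genes of the CAR and PXR type of drug metabolism, 2 rose: the pump gene Abcc3, described above, and Ces2c, a carboxylesterase. Ces2c ran from 7.19 through 7.26 to 7.45 at 55 mg/kg and from 7.55 through 7.67 to 7.89 at 550 mg/kg, a change of 0.40 ± 0.08 (limma adjusted p = 0.010). The list's median was 0.01, with 19 members positive. Cyp3a23-3a1, the rat P450 that PXR ligands are known to raise, had a change of 0.10 ± 0.10 with a 95% interval of -0.10 to 0.29 and an adjusted p of 0.83 in limma. Its arrays ran from 12.65 to 12.89 at 55 mg/kg and from 12.71 to 12.94 at 550 mg/kg.

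Genes of fatty acid oxidation held further called rises. Of 47 peroxisome and PPARalpha target genes, 6 rose and none fell, with 37 positive and a median of 0.10. Acot1 (1398250_at), the cytosolic acyl-CoA thioesterase that PPARalpha ligands raise, was dim at 55 mg/kg, with a lowest value of 2.71, a median of 3.09 and a highest of 4.01. At 550 mg/kg it ran from 4.38 through 6.23 to 8.15. The 550 mg/kg arrays fell in a wide spread: replicates 2, 5 and 6 read 7.18, 8.15 and 7.86, while replicates 1, 3 and 4 read 5.27, 4.38 and 4.53. The change of Acot1 was 3.00 ± 0.41, or 8.01-fold (limma adjusted p = 6.0e-05), and over 19 alternative analyses the adjusted p ran from 2.3e-06 to 0.055, the last in the fit of the 12 arrays alone. RMA values of dim probe sets understate folds.

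Acot2 (1391433_at), the mitochondrial thioesterase, was brighter and less scattered. Its arrays had a lowest value of 8.91, a median of 9.09 and a highest of 9.41 at 55 mg/kg, and 9.71, 10.02 and 10.41 at 550 mg/kg. The change was 0.97 ± 0.12 (limma adjusted p = 1.6e-05), and all 3 of its probe sets were called, with changes from 0.77 to 1.10. Acot1 and Acot2 are close paralogs, and their probe sets may share signal.

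Ehhadh (1368283_at), the bifunctional enzyme of peroxisomal beta-oxidation, ran from 10.71 through 10.93 to 11.05 at 55 mg/kg and from 11.68 through 11.83 to 12.19 at 550 mg/kg, a change of 0.94 ± 0.11 (limma adjusted p = 2.7e-06). Cyp4a1 (1368934_at), the fatty acid omega-hydroxylase, ran from 11.19 through 11.33 to 11.74 and from 11.78 through 12.37 to 12.51, a change of 0.87 ± 0.14 (limma adjusted p = 3.4e-04). Neither gene's groups overlapped, though the nearest arrays of Cyp4a1, at 11.74 and 11.78, were close. Slc27a2, a very long chain acyl-CoA synthetase and transporter, rose by 0.16. Against vehicle, the 55 mg/kg means of Acot1, Acot2, Ehhadh and Cyp4a1 differed by 0.16, 0.09, 0.12 and -0.02, and none of these passed the test.

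Of 33 genes of mitochondrial beta-oxidation, 4 rose and none fell, and 31 were positive, with a median of 0.13. Eci1 (1367659_s_at), the enoyl-CoA isomerase for unsaturated fatty acids, ran from 11.27 through 11.46 to 11.67 at 55 mg/kg and from 11.78 through 12.23 to 12.58 at 550 mg/kg. Its change was 0.76 ± 0.12 (limma adjusted p = 3.4e-04), while the gene's second probe set gave -0.15. Acat1, acetoacetyl-CoA thiolase, rose by 0.38 ± 0.07, and its second probe set by 0.41. Acad9, an acyl-CoA dehydrogenase that also assembles complex I, rose by 0.36 ± 0.05 and Decr1, the dienoyl-CoA reductase, by 0.29 ± 0.06. The groups of these 4 did not overlap. The mean over the 33 genes ran from 10.02 to 10.11 in the 55 mg/kg arrays and from 10.20 to 10.28 in the 550 mg/kg arrays. Over all metabolism lists, 27 of 375 genes (7.2%) were called, 23 higher and 4 lower, beside 1.14% over all genes. The conjugation, PPARalpha and mitochondrial beta-oxidation lists had 15.7%, 12.8% and 12.1% called, and the CAR and PXR list 5.71%. Leaving out 55 mg/kg replicate 1 gave 18 called over all metabolism lists.

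**Figure D3:**
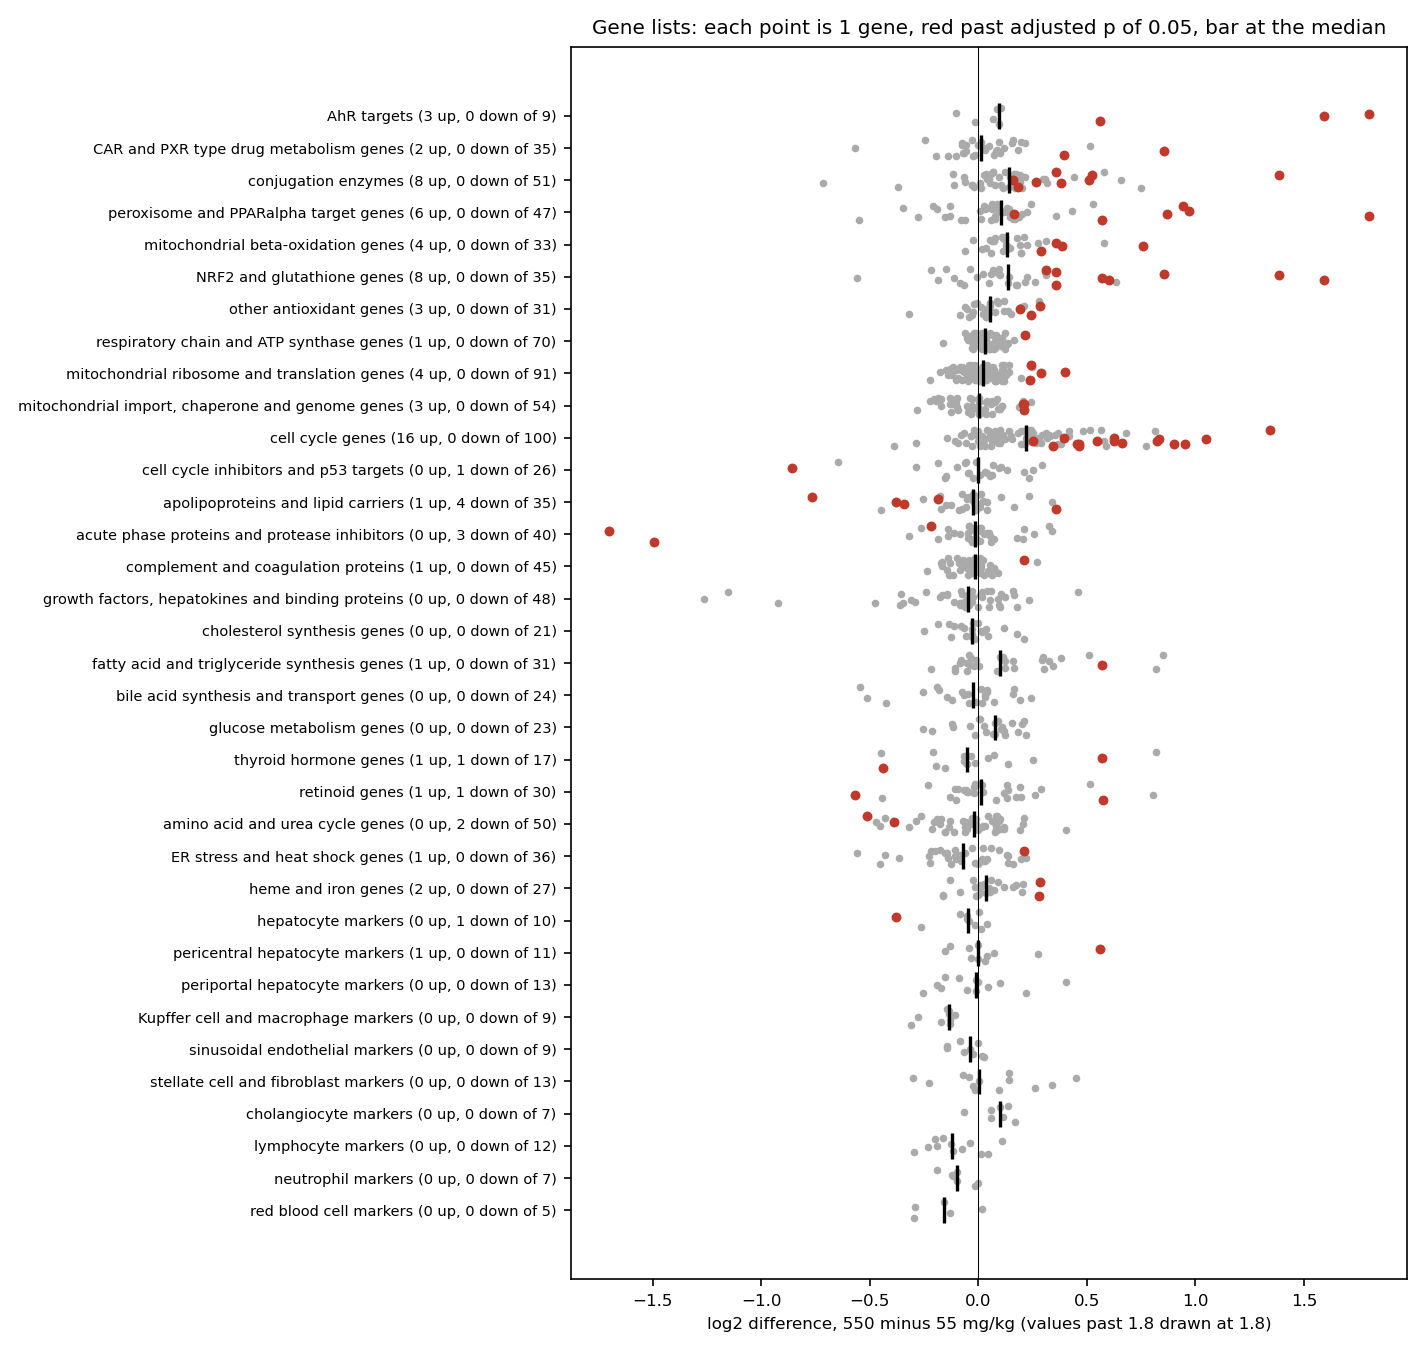
For each gene list (y, with its called and measured members), grey points plot the log2 difference of 550 minus 55 mg/kg of each gene (x), red points those past an adjusted p of 0.05, and black bars the list's median; changes past 1.8 are drawn at 1.8, and the vertical offset of points has no meaning. The cell cycle list has its median at 0.22, the conjugation, NRF2, beta-oxidation and PPARalpha lists lie between 0.10 and 0.14, and the other medians lie between -0.16 and 0.10.

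Called changes in genes of the mitochondrial machinery were few and small. Of 70 respiratory chain and ATP synthase genes, 1 rose, Ndufs1, the largest subunit of complex I, by 0.22 ± 0.05 (limma adjusted p = 0.015), from a 55 mg/kg range of 10.39 to 10.60 to a 550 mg/kg range of 10.58 to 10.79. That was 1.43% of the list, near the 1.14% called over all genes. The list had 51 positive members and a median of 0.03. Of 91 genes of the mitochondrial ribosome and translation, 4 rose and none fell, with a median of 0.02. They were Mrps27, a small subunit protein, at 0.40 ± 0.08, and the tRNA synthetases Iars2 at 0.29 ± 0.06, Fars2 at 0.24 ± 0.06 and Tars2 at 0.24 ± 0.06. Of 54 genes of import, chaperones and the mitochondrial genome, 3 rose and none fell: both subunits of the peptidase that trims imported proteins, Pmpcb and Pmpca, and the chaperone Trap1, each by 0.21 ± 0.05. The median of that list was 0.0008. Called shares were 4.4% of the translation list and 5.56% of the import list.

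The 8 called mitochondrial genes, 3.72% of 215 over the 3 lists, depended on the arrays and on the fit. Their number was 3 when array medians were subtracted and 0 in the fit of the 12 arrays alone. Leaving out 1 array gave 2 without 55 mg/kg replicate 1 or 6, 3 without 550 mg/kg replicate 2, 4 without 55 mg/kg replicate 4, and 5 without 550 mg/kg replicate 3, 4 or 5.

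The cell cycle list had more called genes than any other list, though not the largest share: 16% of it was called, against 33.3% of the AhR targets and 22.9% of the NRF2 and glutathione genes. Of 100 measured, 16 rose and none fell, 84 were positive, and the median change was 0.22. Ccnb2 (1389566_at), cyclin B2, which drives entry into mitosis, had a lowest value of 5.31, a median of 5.88 and a highest of 6.13 at 55 mg/kg, and 6.29, 6.77 and 7.60 at 550 mg/kg. Its change was 1.05 ± 0.21, or 2.07-fold (limma adjusted p = 0.0094), without overlap. The vehicle arrays spread from 5.25 to 6.70, however, and so reached into the 550 mg/kg range; the change against vehicle was 0.94 ± 0.23 with an adjusted p of 0.044.

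Cdkn3 (1372685_at), a phosphatase of cyclin-dependent kinases, had the largest rise of the list. It ran from 4.92 through 5.87 to 6.44 at 55 mg/kg and from 6.49 through 6.95 to 7.91 at 550 mg/kg. The change was 1.34 ± 0.27 (limma adjusted p = 0.0074), with no overlap. In vehicle it ran from 5.04 to 6.85, and the change of 1.05 ± 0.28 against vehicle did not pass the test, at an adjusted p of 0.088.

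Mki67 (1374775_at), which encodes the proliferation marker Ki-67, was dim, with 3.64, 3.82 and 4.10 as its lowest, median and highest at 55 mg/kg. At 550 mg/kg it had 4.19, 4.48 and 5.33, of which replicates 5 and 6 held 5.25 and 5.33. The change was 0.82 ± 0.16 (limma adjusted p = 0.0060), and its vehicle arrays ran from 3.43 to 4.25. Its groups at 55 and 550 mg/kg did not overlap.

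The other called members filled out several steps of division. Ccna2, cyclin A2 of S phase and early mitosis, changed by 0.95 ± 0.21. Cdca3, a trigger of mitotic entry, changed by 0.90 ± 0.20, and Spc24, a part of the NDC80 complex that ties kinetochores to the spindle, by 0.83 ± 0.18. The groups of these 3 did not overlap, and their changes against vehicle, 0.78, 0.73 and 0.71, had adjusted p-values of 0.13, 0.12 and 0.081 in limma. The 3 calls at 550 against 55 mg/kg were lost without 55 mg/kg replicate 4; that of Ccna2 was also lost without 55 mg/kg replicate 2 or 550 mg/kg replicate 5 or 6, that of Cdca3 without 550 mg/kg replicate 6 and that of Spc24 without 550 mg/kg replicate 5. Bub1, a spindle checkpoint kinase, rose by 0.66, Pttg1, securin, by 0.63, and the kinesin Kif20a by 0.63. Depdc1, Kif2c, Pbk, Kif20b, Cenpf, Zwint and H2az1 rose by 0.25 to 0.55. The groups of Bub1, Pttg1, Depdc1, Kif2c and Cenpf overlapped. Bub1, Kif20b and Depdc1 were dim, with 55 mg/kg means of 3.70, 3.58 and 2.97. Kif20b and Cenpf had limma adjusted p-values of 0.039 and 0.040. Cenpw, a centromere protein, rose by 0.90 ± 0.18 on 1 of its 2 probe sets, with overlapping groups. Its brighter probe set, which stood for it in the list, gave 0.31 and was not called, so Cenpw is not among the 16. Mad2l1 was likewise called on a probe set that did not stand for it in the list, at 0.37 without overlap. Both genes count as uncalled in the list and in the promoter comparison below.

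The mean of the 100 genes in each array placed replicates 5 and 6 highest at 550 mg/kg, at 5.64 and 5.75. The other 4 arrays of that dose lay from 5.39 to 5.47, the 55 mg/kg arrays from 5.15 to 5.39 and the vehicle arrays from 5.12 to 5.42. Arrays at 0.05, 0.55 and 5.50 mg/kg ran from 5.17 to 5.48. The highest of these, 5.50 mg/kg replicate 6, thus lay above those 4 arrays at 550 mg/kg. The highest 55 mg/kg array, at 5.391, nearly met the lowest 550 mg/kg array, at 5.394. The 2 lists of cell cycle genes and inhibitors held 17 called genes of 126 (13.5%). This number was 24 with the mean of all probe sets of each gene. It was 8 without 550 mg/kg replicate 6, 10 without 550 mg/kg replicate 5, 9 without 55 mg/kg replicate 4 and 23 without 550 mg/kg replicate 3. In the fit of the 12 arrays alone, 1 of them was called, and the adjusted p was 0.053 for Cdkn3, 0.052 for Ccnb2 and 0.087 for Mki67, the highest over each gene's alternatives. The lowest were 0.0039, 0.0053 and 0.0023.

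Promoters of 2 called mitotic genes are shown because such promoters are known to carry CCAAT boxes and the sequence TTTGAA, the cell cycle homology region that the DREAM and MuvB complexes read. Both motifs were added after the called genes were known. Capitals mark CCAAT and TTTGAA on either strand, so that ATTGG and TTCAAA mark the opposite strand. The window of Mki67 is chr1:199952544-199952843 and that of Pttg1 is chr10:28406277-28406576, both on the minus strand of GRCr8, from RefSeq, with 250 bases before and 50 after the start.
Mki67: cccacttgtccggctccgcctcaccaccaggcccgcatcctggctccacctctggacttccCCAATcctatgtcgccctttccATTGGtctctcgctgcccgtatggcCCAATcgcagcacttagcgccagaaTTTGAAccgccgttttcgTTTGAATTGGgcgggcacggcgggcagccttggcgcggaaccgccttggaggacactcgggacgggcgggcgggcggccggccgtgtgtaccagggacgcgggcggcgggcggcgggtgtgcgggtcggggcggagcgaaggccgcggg
Pttg1: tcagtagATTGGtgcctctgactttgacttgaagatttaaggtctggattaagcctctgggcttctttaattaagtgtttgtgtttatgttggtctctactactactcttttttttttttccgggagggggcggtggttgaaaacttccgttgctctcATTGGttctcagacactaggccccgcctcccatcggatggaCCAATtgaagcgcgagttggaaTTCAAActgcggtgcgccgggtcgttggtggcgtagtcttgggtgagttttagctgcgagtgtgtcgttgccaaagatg
Mki67 holds 4 CCAAT and 2 TTTGAA matches, of which a pair shares 1 base, and Pttg1 holds 3 and 1. Of the 16 called cell cycle genes, 13 had a window, and CCAAT was in 11 (84.6%) and TTTGAA in 8 (61.5%). Among 72 uncalled genes of the list with a window, CCAAT was in 48 (66.7%) and TTTGAA in 34 (47.2%), and among all 27457 genes with a window the shares were 39.6% and 19.4% (37.5% and 18.3% of the 33469 windows). The shares were thus high in called and uncalled cell cycle genes, and their difference was not tested.

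Of 26 cell cycle inhibitors and p53 targets, 1 (3.85%) fell and none rose, beside 1.14% called over all genes. It was Cdkn1a (1388674_at), p21, the inhibitor of cyclin-dependent kinases that p53 induces. Cdkn1a ran from 7.04 through 7.30 to 8.06 at 55 mg/kg and from 5.81 through 6.54 to 6.97 at 550 mg/kg, with no overlap. It fell by 0.86 ± 0.21 on the log2 scale (limma adjusted p = 0.049), and the change against vehicle was -0.57 ± 0.23 with an adjusted p of 0.40. The call was lost in 13 of 20 alternative analyses, among them those without 55 mg/kg replicate 1, 3, 4, 5 or 6 and without 550 mg/kg replicate 1, 2, 4 or 6. Its second probe set gave -0.62 and was not called.

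**Figure D4:**
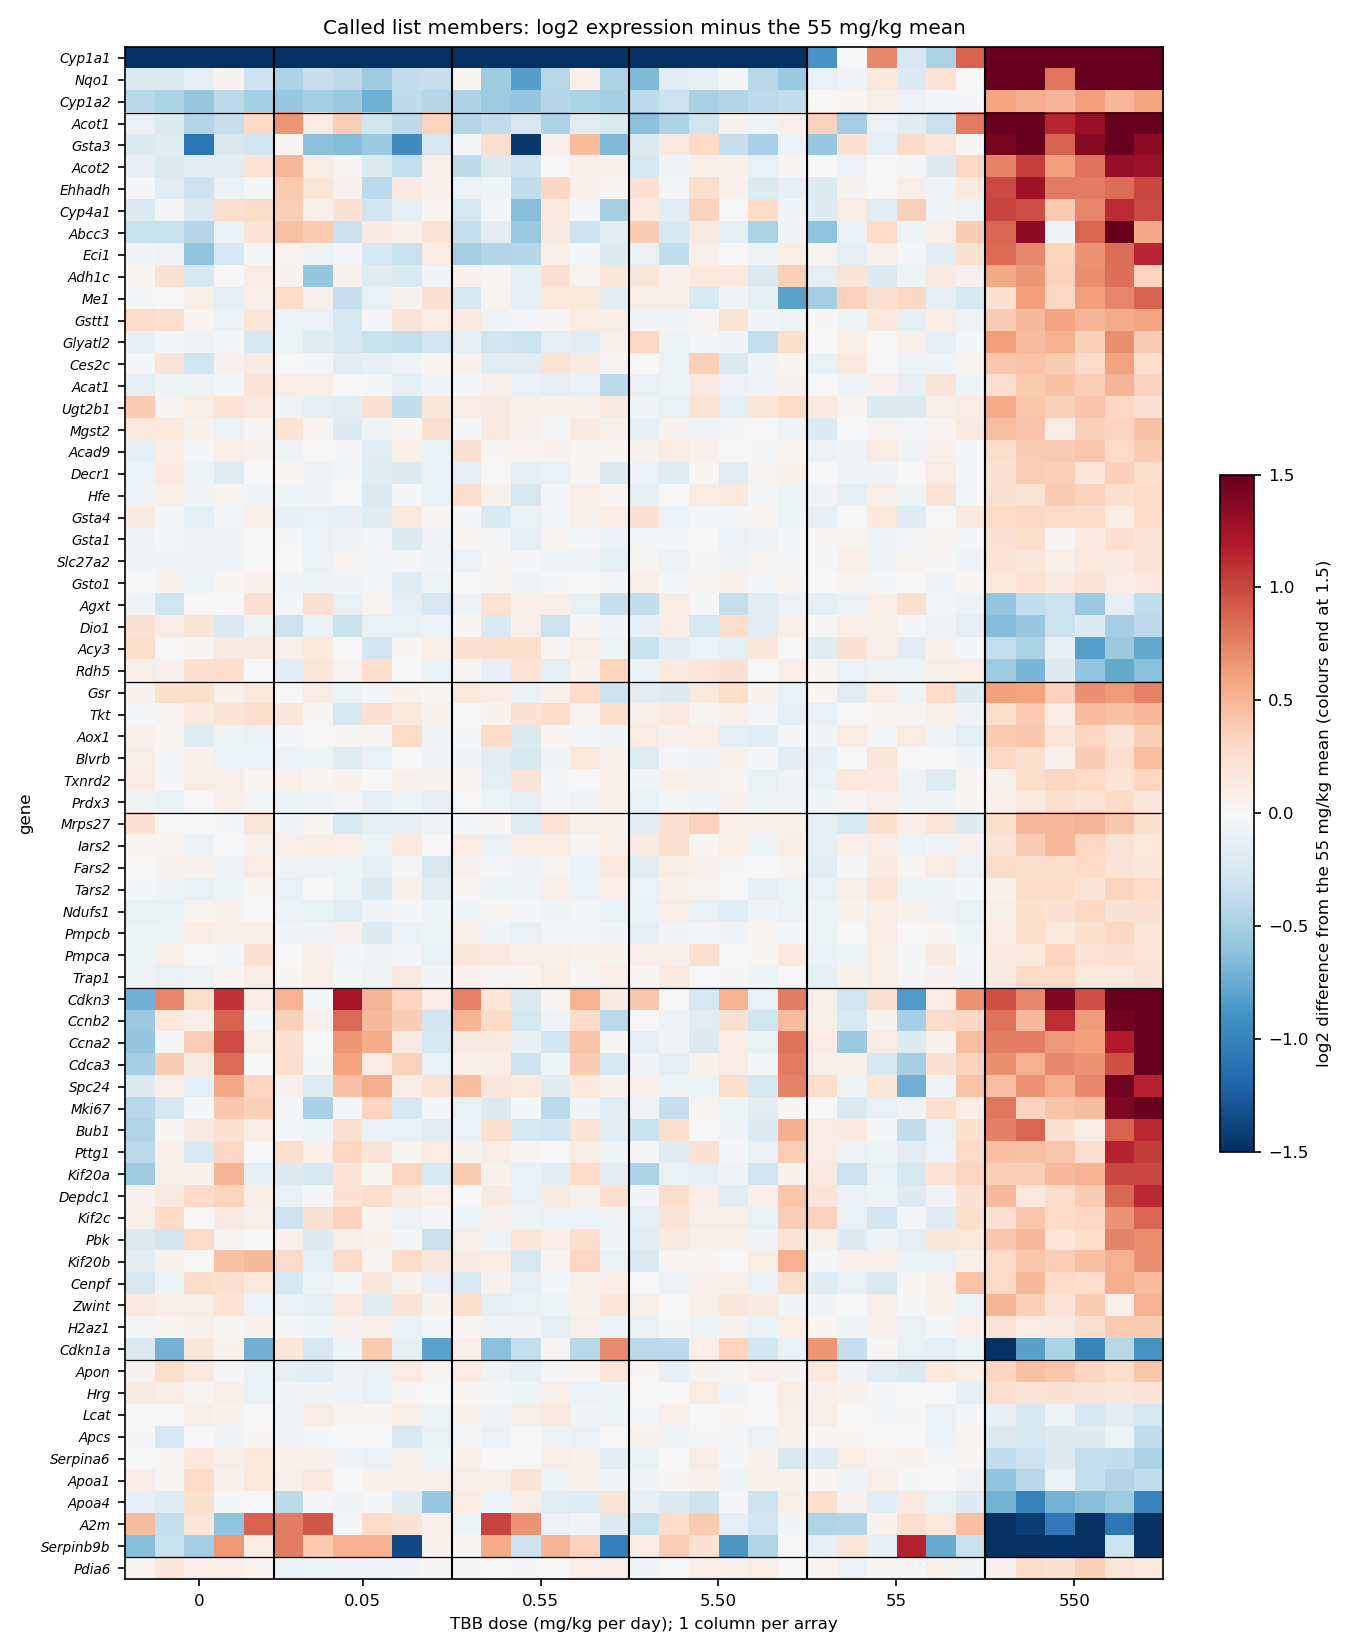
Each of the called list members (y) is drawn in each of the 35 arrays (x, grouped by TBB dose in mg/kg per day, 1 column per array) as its log2 expression minus the mean of the 55 mg/kg arrays, red for higher and blue for lower, with colours ending at 1.5. The cell cycle block is reddest in the last 2 columns, replicates 5 and 6 at 550 mg/kg, and shows single red columns at lower doses; A2m and Serpinb9b are deep blue in most of the 550 mg/kg arrays.

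Of 159 genes on the 4 lists of plasma proteins, inhibitors and growth factors, 7 fell and 2 rose. That was 5.66% called, beside 1.14% over all genes, where 0.957% rose and 0.183% fell. The lipid carrier list had 14.3% called and the acute phase list 7.5%. Of the 7 that fell, Serpinb9b belongs to a clade of protease inhibitors that mostly act inside cells. A2m (1367794_at), alpha-2-macroglobulin, a broad plasma protease inhibitor and acute phase protein of the rat, had a lowest value of 8.64, a median of 9.20 and a highest of 9.54 at 55 mg/kg. At 550 mg/kg it had 6.91, 7.63 and 8.02. The groups did not overlap, and A2m fell by 1.497 ± 0.23, so that its level was 2.82-fold higher at 55 mg/kg (limma adjusted p = 3.5e-04). Serpinb9b (1376958_at), a serine protease inhibitor, fell by 1.70 ± 0.34 (limma adjusted p = 0.0083). Its groups overlapped, from 7.51 through 8.15 to 9.42 and from 5.83 through 6.46 to 7.95, and the call was lost in the fit of the 12 arrays alone. Apcs, serum amyloid P, fell by 0.22 ± 0.05, a call lost in 7 of 20 alternative analyses. These were 3 of 40 acute phase proteins and protease inhibitors; none of that list rose, and its median was -0.02.

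Among 35 apolipoproteins and lipid carriers, 4 fell and 1 rose, with a median of -0.03. Apoa4 (1368520_at), an apolipoprotein of high density lipoprotein and chylomicrons, ran from 11.60 through 11.78 to 12.03 at 55 mg/kg and from 10.77 through 11.08 to 11.26 at 550 mg/kg. It fell by 0.77 ± 0.10 (limma adjusted p = 3.6e-05), without overlap. Apoa1 (1368335_at), the main protein of high density lipoprotein, ran from 13.24 through 13.29 to 13.40 and from 12.70 through 12.91 to 13.20. It fell by 0.38 ± 0.06 (limma adjusted p = 3.4e-04), again without overlap. Serpina6, the corticosteroid-binding globulin, fell by 0.34 ± 0.06, and Lcat, which esterifies cholesterol on high density lipoprotein, fell by 0.19 ± 0.05 at an adjusted p of 0.046, a call lost in 12 of 20 alternative analyses. Apon, apolipoprotein N, rose by 0.36 ± 0.07, a call lost in the fit of the 12 arrays alone.

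Of 45 complement and coagulation proteins, 1 (2.22%) rose and none fell, near the 1.14% called over all genes. It was Hrg, histidine-rich glycoprotein, which rose by 0.21 ± 0.04 (limma adjusted p = 0.012). The call was lost without 55 mg/kg replicate 6 and in the fit of the 12 arrays alone. Of 48 growth factors, hepatokines and binding proteins, none was called. The member with the smallest p was Igfbp2, which binds insulin-like growth factors. It ran from 7.42 to 8.56 at 55 mg/kg and from 6.28 to 7.23 at 550 mg/kg, without overlap, but its vehicle arrays spread from 6.79 to 8.97. Its change was -1.15 ± 0.34 with an adjusted p of 0.14 in limma.

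Smaller metabolic groups held up to 2 calls each. Called shares were 11.8% of the thyroid hormone list, 6.67% of the retinoid, 4% of the amino acid and 7.41% of the heme and iron list. The ER stress list had 2.78% called, near the 1.14% over all genes. Dio1 (1369259_at), the liver deiodinase that turns thyroxine into its active form, ran from 7.18 through 7.31 to 7.42 at 55 mg/kg and from 6.66 through 6.86 to 7.12 at 550 mg/kg. It fell by 0.44 ± 0.09 (limma adjusted p = 0.0084), and with Me1 it was 1 of 2 called among 17 thyroid hormone genes. Of 30 retinoid genes, Rdh5, a retinol dehydrogenase, fell by 0.57 ± 0.08 on 1 of its 2 probe sets, the other at -0.16. Adh1c, an alcohol dehydrogenase that also oxidises retinol, rose by 0.57 ± 0.10, with a second probe set at 0.94. Of 50 genes of amino acids and the urea cycle, 2 fell. Acy3, an aminoacylase of mercapturic acids, fell by 0.51 ± 0.10, a call lost in the fit of the 12 arrays alone. Agxt, which removes glyoxylate, fell by 0.39 ± 0.10, a call lost in 14 of 20 alternative analyses. Of 27 heme and iron genes, Blvrb and Hfe, a regulator of iron sensing, rose by 0.28 each, calls lost in 7 and 9 of 20 alternative analyses. Of 36 genes of ER stress and heat shock, Pdia6, a disulfide isomerase, rose by 0.21 ± 0.04. The call of Pdia6 was lost in the fit of the 12 arrays alone.

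Several pathways of liver metabolism held no called gene or 1 that another list shares. None of 21 cholesterol synthesis genes, 24 genes of bile acids or 23 genes of glucose metabolism passed the test, and of 31 genes of fatty acid and triglyceride synthesis only Me1 did. Cyp7a1, the hydroxylase that sets the rate at which bile acids are made, ran from 10.15 through 11.65 to 12.05 at 55 mg/kg and from 10.07 through 11.11 to 11.95 at 550 mg/kg. Its change of -0.43 ± 0.32 had a 95% interval of -1.08 to 0.23, so a fall or a small rise was within its error.

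Markers of other liver cell types were not called. All 9 measured markers of Kupffer cells and macrophages had negative changes, with a median of -0.14. Their mean level per array ran from 8.36 to 9.18 at 55 mg/kg and from 8.22 to 8.94 at 550 mg/kg, so the groups overlapped. Clec4f, the Kupffer cell lectin, changed by -0.28 ± 0.19. The 7 neutrophil markers were all negative as well, and the 12 lymphocyte markers had 3 positive; their array means ran from 4.33 to 4.89 and 5.02 to 5.61 at 55 mg/kg, and from 4.30 to 4.59 and 5.04 to 5.34 at 550 mg/kg. Of 7 cholangiocyte markers 6 were positive, of 13 stellate cell and fibroblast markers 7, and of 9 sinusoidal endothelial markers 2. Of the 5 red blood cell markers, 1 was positive, and their array means ran from 6.27 to 6.76 at 55 mg/kg and from 6.13 to 6.48 at 550 mg/kg. The part of these cell types in the cell cycle and acute phase changes was not tested. Among hepatocyte zone markers, Cyp1a2 was the 1 called of 11 pericentral genes, and none of 13 periportal genes was called.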

How the data were processed

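Liver RNA of 35 samples was hybridised to Affymetrix rat arrays, 1 array each. The authors deposited log2 expression values per probe set; per the submitters' processing notes, RMA and the affy package were used. RMA corrects background, quantile-normalises the arrays and summarises each probe set's probes, which shrinks folds of dim genes. Of 31099 probe sets, 57 control probe sets were left out. Symbols came from the platform's annotation, updated through Entrez identifiers: 20826 probe sets had 1 symbol, 436 several and 9780 none. The deposited values were used with no further normalisation.

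A linear model with 1 mean per dose group was fitted to all 35 arrays (29 residual degrees of freedom) and moderated with limma 3.58.1 in R 4.3.3; p-values were adjusted over the 31042 probe sets by Benjamini and Hochberg, and 0.05 was the threshold. The fit was tested on simulated data. Lists used the probe set with the highest mean per gene. Named genes were the 15 largest increases and 15 largest decreases among called single-symbol probe sets with all 6 arrays at 550 mg/kg on one side of the 55 mg/kg mean, up to 5 called members per list (otherwise the member with the smallest p), and a short set named whatever its values; other called list members are named with their change. Members and the 35 gene lists were chosen with earlier results of these data known, and several genes sit on more than 1 list. The alternatives were array medians subtracted, cyclic loess, dim probe sets left out, other variance models, array weights, the 2 groups alone, a replicate block, 1 or the mean probe set per gene, a 1.5-fold minimum and leaving out each array.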

Additional observations from a re-analysis of the deposited data

Results flagged for a closer look

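Single arrays that stood far from the other 5 of their group were found in 10 of 156 groups checked (6.41%), where chance gives about 1 in 20. In 3 of the 10 the array was 550 mg/kg replicate 3, which was lowest for Nqo1 (8.525, the next 9.263), Mgst2 (11.36, the next 11.58) and Gsr (8.776, the next 9.022). All 3 genes stayed called without that array, with limma adjusted p-values of 6.5e-11, 5.1e-04 and 4.9e-05. The 550 mg/kg replicate 6 was highest for Cdca3 (7.958, the next 7.078) and lowest for Slc13a3 (7.511, the next 8.006); without it the limma adjusted p was 0.058 for Cdca3 (0.011 to 0.082 over all its alternatives) and 0.0058 for Slc13a3. At 55 mg/kg, replicate 1 was highest for Cdkn1a (8.058, the next 7.405), whose limma adjusted p was 0.16 without it, the highest of its alternatives, which began at 0.023. The 55 mg/kg replicate 6 was highest for Acot2 (9.408, the next 9.094), which stayed called without it, and for Csf3r (3.263, the next 2.997), a neutrophil marker that was not called. The 55 mg/kg replicate 5 was highest for Decr1 (12.2, the next 12.09) and lowest for Apcs (12.95, the next 13.03), and both stayed called without it. The causes were not tested.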

How the results depend on the processing

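The 213 called probe sets (179 higher, 34 lower) became 76 (62 and 14) in a fit of the 2 groups alone, 327 called with 72 lower under array weights, and 38 (34 and 4) with a 1.5-fold minimum. Subtracting array medians gave 118 higher; the falls numbered 66 without the 40% dimmest probe sets, 57 after cyclic loess and 53 with a variance trend and robust moderation. Leaving out 1 array gave 123 to 197 called, 104 to 166 higher and 19 to 43 lower. In the fit of the 2 groups alone, called list members fell from 27 to 16 for metabolism, 11 to 4 for antioxidant, 8 to 0 for mitochondrial, 17 to 1 for cell cycle and 9 to 5 for secreted genes. With array medians subtracted, the antioxidant lists had 7 and the mitochondrial lists 3. Leaving out 1 array gave 18 to 28 for metabolism, 5 to 12 for antioxidant, 2 to 8 for mitochondrial, 8 to 23 for cell cycle and 6 to 10 for secreted genes. The fit of 2 groups estimates the spread from their 12 arrays alone, while the main fit shares 1 estimate over the 6 dose groups. The causes of these shifts were not tested. With the replicate number as a replicate block, 200 probe sets were called (167 higher, 33 lower). Same-numbered arrays correlated between -0.14 and 0.20, and 2 of 6 pairs were over 0.1. Of the 6 arrays at 55 mg/kg, 2 lay closest to their own number. These 6 pairs are too few to tell whether the numbers pair the samples. Of 63 named genes that were called, 25 kept the call in each of the up to 20 alternatives run on them, 39 in each that left out an array, and no change reversed its direction; the 1.5-fold minimum and the choice of probe set were not among these, and several of the 25 changed by less than 1.5-fold. The median 95% interval reached 0.16 to either side of a change, which limits what small changes can show.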

Other observations

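Of the 162 genes called at 1 probe set per gene, 92 were on none of the gene lists. The genes in this paragraph were chosen after their values were seen, and their adjusted p-values come from limma's fit over all probe sets. Several encode enzymes and structural proteins of the mitochondrial matrix and inner membrane that the 3 mitochondrial lists did not hold. The share of such genes that was called was not counted, and these calls were not followed through the alternative analyses. Idh2, the NADP-dependent isocitrate dehydrogenase, rose by 0.36, Pdha1, a subunit of pyruvate dehydrogenase, by 0.30, and Idh3b, a subunit of the NAD-dependent isocitrate dehydrogenase, by 0.18. Mipep, a processing peptidase of the matrix, rose by 0.31, Oma1, a stress-activated peptidase of the inner membrane, by 0.30, and Immt and Chchd6, parts of the complex that shapes cristae, by 0.18 and 0.31. Tmlhe, the first enzyme of carnitine synthesis, rose by 0.30. The groups of Idh2, Pdha1, Mipep, Oma1 and Tmlhe did not overlap, while those of Chchd6 did.

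Other called genes outside the lists had changes in both directions. Bdh2, a cytosolic short chain dehydrogenase, ran from 4.19 through 4.78 to 4.99 at 55 mg/kg and from 5.17 through 5.46 to 6.07 at 550 mg/kg, a rise of 0.86 ± 0.17 (limma adjusted p = 0.0079). Aig1, an androgen-induced membrane hydrolase of fatty acid esters, ran from 7.01 through 7.13 to 7.34 and from 7.81 through 8.01 to 8.16. It rose by 0.84 ± 0.11 (limma adjusted p = 2.7e-05), while its second probe set gave 0.01. Slc39a4, a zinc importer, rose by 0.68 and Ddc, aromatic amino acid decarboxylase, by 0.50. Among the falls, Atf5, a stress-responsive transcription factor, fell by 0.56 ± 0.13 with overlapping groups and lost its call in 9 of 20 alternatives. Slc13a3, a dicarboxylate transporter, fell by 0.54 ± 0.10, Crym, a cytosolic binder of thyroid hormone, by 0.45 ± 0.08, and Gjb2, connexin 26 of hepatocyte gap junctions, by 0.44 ± 0.10, a call lost without 55 mg/kg replicate 6 or 550 mg/kg replicate 1 or 4. The growth hormone receptor gene Ghr fell by 0.23.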
